A study of Mus musculus with 34 samples.

Results

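The tumour necrosis factor (TNF) superfamily genes of early thymocytes were followed across Bcl11b genotypes and stages. The members were all genes whose symbol begins with Tnfrsf (receptors) or Tnfsf (ligands). There were 32 of them among the 24505 genes of the Lck table, 20 receptors and 12 ligands. The Vav table held 12 of its 2076 genes, 6 receptors and 6 ligands, and all 12 were also in the Lck table. Members of the superfamily under other symbols, such as Tnf, Fas and Cd27, were handled as a separate list.

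RNA sequencing covered 34 libraries of double-negative (DN) thymocytes, the T-cell precursors that lack CD4 and CD8, from C57BL6/J mice. Every group carried a Cre transgene, the wild-type (WT) groups included. Lck-Cre is driven by a promoter active in thymocytes, and Vav1-iCre by a promoter active in blood-forming cells. In the Lck series, HOM had the genotype Bcl11b flx/flx (5 libraries, sorted YFP+CD25+, with no stage in the labels). HET DN3 (6 libraries) and HET DN2 (5 libraries) were Bcl11b flx/+, and WT DN3 (5 libraries) and WT DN2 (4 libraries) were Bcl11b +/+. DN3 cells were sorted YFP+CD25+ and DN2 cells YFP-CD25+, so that stage and the yellow fluorescent protein (YFP) reporter changed together. In the Vav series all cells were YFP+CD25+, with the genotypes Bcl11b flx/flx (HOM, 3 libraries), flx/+ (HET, 4 libraries) and +/+ (WT, 2 libraries). The labels do not state the age of the mice or say that the libraries are from separate mice. P-values therefore measure the spread between libraries, which may be technical.

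Ligands of the superfamily act as trimers, on the cell surface or shed from it, and gather receptors that recruit TRAF adaptors or, through a death domain, FADD and caspase-8. TRAF signalling feeds the canonical and non-canonical NF-kappaB pathways, and the death domain can start apoptosis. In the thymus, RANK ligand, lymphotoxin and CD40 ligand from lymphocytes drive the growth of medullary epithelium, and receptors such as GITR, OX40 and TNFR2 mark and support regulatory T-cell precursors.

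Lck libraries held 15772841 to 43105091 counts. The listed Vav genes, which the authors selected by their change in HOM, held 1329826 to 2836293 counts per library, and the full depth of those libraries is unknown. Levels are given as RPKM, counts per kilobase of exon scaled to library depth. Bcl11b itself had 33.0 to 58.3 RPKM in HOM, 92.0 to 123 in HET DN3 and 89.1 to 124 in WT DN3. At DN2 it had 123 to 160 RPKM in HET and 133 to 163 in WT. Which exons the floxed alleles lose is not given in the sources used here. Of the 8 DN thymocyte markers examined (Il2ra, Ptcra, Rag1, Rag2, Cd3e, Kit, Cd44 and Notch1), all were detected in every group. Kit, a marker of the earlier stages, had 33.9 to 59.3 RPKM in HOM, 5.91 to 17.2 in HET DN3, 7.41 to 15.6 in WT DN3, 18.4 to 28.0 in HET DN2 and 18.0 to 30.5 in WT DN2. Its part in the results below was not tested.

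Libraries that stood apart touched several members. In 6 libraries (HOM replicates 2 and 3, HET DN3 replicates 2 and 3, HET DN2 replicates 1 and 2) the epithelial genes Clu, Krt8 and Krt18 were high, with Clu at 73.6 to 709 RPKM against at most 0.719 in the other 19. The summed level of the 7 epithelial markers was 359 to 3280 CPM in those 6 libraries and 14.5 to 55.7 in the other 19. HET DN3 replicate 1 and WT DN2 replicate 2 stood apart by mature T-cell transcripts: Cd4 had 80.3 and 69.4 RPKM there. Ccl5, which encodes a chemokine, had 29.4 and 56.9 RPKM. Ccl5 also reached 23.2 and 16.0 RPKM in HOM replicates 1 and 4, where Cd4 was at most 6.70 RPKM. HET DN3 replicate 1 also had a summed level of 1340 CPM of the 4 erythroid markers, against at most 62.3 CPM in any other Lck library. Calls that ended without these 8 libraries, and levels that they carried, are given with and without them. In bulk RNA, fewer cells of a type and less RNA per cell cannot be told apart.

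Other marker lists, or single genes of them, moved with HOM. Of the 5 mature T-cell genes measured, Cd8a alone was without overlap, at 2.80 to 12.4 RPKM in HOM and 0.490 to 1.40 in WT DN3. Cd4, Cd8b1, Ccl5 and Ccr7 overlapped between HOM and WT DN3. Ccr7 had 0.808 to 1.64 RPKM in HOM and 0.904 to 2.17 in WT DN3, and the medians of Cd4 were 1.11 and 1.16 RPKM. The summed level of the 5 overlapped as well, at 14.9 to 63.5 CPM in HOM and 10.1 to 31.0 CPM in WT DN3. The 3 regulatory T-cell markers summed to 210 to 267 CPM in HOM and 119 to 155 CPM in WT DN3, but did not move together. Foxp3 had 1.00 to 1.75 RPKM in HOM and 2.18 to 2.95 in WT DN3, Ctla4 had 2.02 to 6.03 in HOM and 10.4 to 16.0 in WT DN3, and Ikzf2 had 20.6 to 27.4 in HOM and 8.93 to 12.7 in WT DN3. The 5 myeloid and dendritic markers summed to 1.07 to 5.04 CPM in HOM, with Siglech at 0, and to 5.41 to 11.9 CPM in WT DN3. Lyz2 had 0.454 to 2.66 RPKM in HOM and 4.59 to 8.74 in WT DN3. The 6 natural killer and innate lymphoid markers summed to 2.84 to 6.57 CPM in HOM and 10.2 to 15.4 CPM in WT DN3. The part of these cells in the results on HOM was not tested.

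The results turned on a few members, and the promoters of 4 of them are shown, Tnfrsf8 and the 3 with the largest log2 changes in HOM against WT DN3 among the other called members that have a window in the RefSeq table. Tnfrsf26 has none there. Tnfrsf8, the gene of CD30, lies on the minus strand of chromosome 4 (144858879 to 144905050, build mm9). Tnfrsf1b, the gene of TNF receptor 2, is its neighbour on the same strand (144802271 to 144836773), with a gap of 22.1 kb between them. Tnfsf10, the gene of TRAIL, lies on the plus strand of chromosome 3 (27215999 to 27238587). Tnfrsf1a, the gene of TNF receptor 1, lies on the plus strand of chromosome 6 (125299741 to 125312501). The windows below run from 250 bases before to 50 bases after the annotated start, on the strand of the gene, and come from RefSeq with the build GRCm38.p6, so their coordinates differ from those of mm9 above. Capitals mark matches on either strand to the strings searched. These were a kappaB-like string (GGGA, then any 4 bases, then CC), the E-box string CAGGTG (called the first E-box here), the E-box string CAGCTG (the second E-box), the Runx-like string TGTGGT, the Ets-like string CCGGAA and the TATA box string TATAAA. Each string was searched separately, so matches could overlap.
Tnfrsf8, chr4:145315115-145315414, minus strand: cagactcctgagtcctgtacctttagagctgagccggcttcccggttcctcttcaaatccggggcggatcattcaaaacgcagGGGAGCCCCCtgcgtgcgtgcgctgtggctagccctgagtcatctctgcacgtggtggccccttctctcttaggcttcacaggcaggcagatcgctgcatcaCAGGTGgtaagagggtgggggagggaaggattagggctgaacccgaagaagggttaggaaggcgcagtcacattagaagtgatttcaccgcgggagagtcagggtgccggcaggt
Tnfrsf1b, chr4:145246821-145247120, minus strand: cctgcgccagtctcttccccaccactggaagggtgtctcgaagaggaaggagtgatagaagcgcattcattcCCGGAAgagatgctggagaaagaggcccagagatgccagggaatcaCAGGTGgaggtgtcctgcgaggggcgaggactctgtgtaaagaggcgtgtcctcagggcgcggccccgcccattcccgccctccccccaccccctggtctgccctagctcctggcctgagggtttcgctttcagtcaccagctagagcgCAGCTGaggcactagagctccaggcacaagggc
Tnfsf10, chr3:27316827-27317126, plus strand: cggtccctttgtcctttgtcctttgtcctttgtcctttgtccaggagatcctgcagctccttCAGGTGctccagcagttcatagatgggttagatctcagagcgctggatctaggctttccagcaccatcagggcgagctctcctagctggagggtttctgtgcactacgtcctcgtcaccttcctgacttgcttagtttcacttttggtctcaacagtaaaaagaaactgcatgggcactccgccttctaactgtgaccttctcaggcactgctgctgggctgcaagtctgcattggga
Tnfrsf1a, chr6:125349473-125349772, plus strand: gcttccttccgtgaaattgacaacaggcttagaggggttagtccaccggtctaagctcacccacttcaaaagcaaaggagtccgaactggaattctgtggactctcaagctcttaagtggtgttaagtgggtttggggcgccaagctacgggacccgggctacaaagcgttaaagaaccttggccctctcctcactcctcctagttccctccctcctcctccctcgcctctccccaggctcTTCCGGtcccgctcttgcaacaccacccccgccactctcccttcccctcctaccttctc
The Tnfrsf8 window held the kappaB-like string and the first E-box, and the Tnfrsf1b window held the Ets-like string and both E-boxes. The Tnfsf10 window held the first E-box, and the Tnfrsf1a window the Ets-like string, there read on the opposite strand. The first E-box was in 9 of the 29 windows found for 25 of the 32 members, against 20.2% of all 32851 windows. The kappaB-like string was in 7 of the 29, against 20.7% of all windows, and the Ets-like string in 4, against 14.9%. The second E-box was in 6, against 16.3% of all windows, the Runx-like string in 6, against 16.8%, and the TATA box string in 4, against 13.6%. The search was one of letters only, and says nothing of binding.

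Of the 32 members, 20 (15 receptors and 5 ligands) reached a mean of 1 RPKM in at least 1 Lck group and were tested among 12218 genes. The filter passed a gene through whichever group was highest. The most abundant receptor was Tnfrsf14 (HVEM, a receptor of LIGHT and of the inhibitory receptor BTLA), with group means of 13.0 to 29.1 RPKM. Tnfrsf1a, Tnfrsf18 (GITR) and Tnfrsf1b had their highest group means at 21.2, 18.9 and 18.8 RPKM, each in WT DN2. For Tnfrsf18 that rested on WT DN2 replicate 2. Without the 8 libraries Tnfrsf18 averaged 15.3 RPKM in WT DN2, 15.6 in HOM and 16.1 in HET DN3. The most abundant ligand was Tnfsf10, with means of 5.91 to 34.2 RPKM, followed by Tnfsf11 (RANK ligand) with 3.36 to 5.33 RPKM. The highest mean of Tnfsf11 was in HET DN3. Without the 8 libraries it was 4.71 RPKM there and 4.93 in HET DN2. The mean of Tnfrsf13b, the gene of the BAFF and APRIL receptor TACI, was between 6.28 and 9.97 RPKM in every group. Tnfrsf4 (OX40) had group means of 1.80 to 4.24 RPKM, the highest in HET DN3, where replicate 1 had 13.2 RPKM and the mean without it was 2.44. In WT DN2 the mean of 4.08 RPKM fell to 2.05 without replicate 2. Tnfsf9, the ligand of 4-1BB, averaged 1.40 RPKM in HOM, 2.11 in HET DN3 and 1.25 in WT DN3.

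The 12 members below the filter were 5 receptors (Tnfrsf11a, Tnfrsf11b, Tnfrsf13c, Tnfrsf17, Tnfrsf19) and 7 ligands (Tnfsf4, Tnfsf12, Tnfsf13, Tnfsf13b, Tnfsf15, Tnfsf18, Tnfsfm13). Their highest group mean was 0.876 RPKM, for Tnfsf12 (TWEAK) in HET DN2, where it rested on the 2 epithelial libraries and was 0.0425 without them. In HOM, Tnfsf12 averaged 0.804 RPKM with and 0.702 RPKM without the epithelial libraries, against 0.0318 in WT DN3. Tnfrsf11b (osteoprotegerin, the decoy for RANK ligand) had no count in HOM, HET DN3, WT DN3 and WT DN2 and 8 counts in HET DN2. Tnfsf18, the ligand of GITR, had 3 counts over all 25 libraries, 2 in HOM and 1 in HET DN3. RANK itself (Tnfrsf11a) had means of 0.0949 to 0.321 RPKM. The BAFF receptor gene Tnfrsf13c reached its highest group mean in HET DN3, 0.307 RPKM with replicate 1 and 0.0754 without it. The BCMA gene Tnfrsf17 had its highest in WT DN2, 0.129 RPKM with replicate 2 and 0.0147 without it. The highest group mean was 0.0907 RPKM for the BAFF gene Tnfsf13b (0.0443 without HOM replicate 4), 0.438 for the APRIL gene Tnfsf13 and 0.221 for the OX40 ligand gene Tnfsf4. Tnfsfm13 is a readthrough transcript that spans Tnfsf12 and Tnfsf13, so counts of the 3 genes can share reads and are uncertain.

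**Figure D1:**
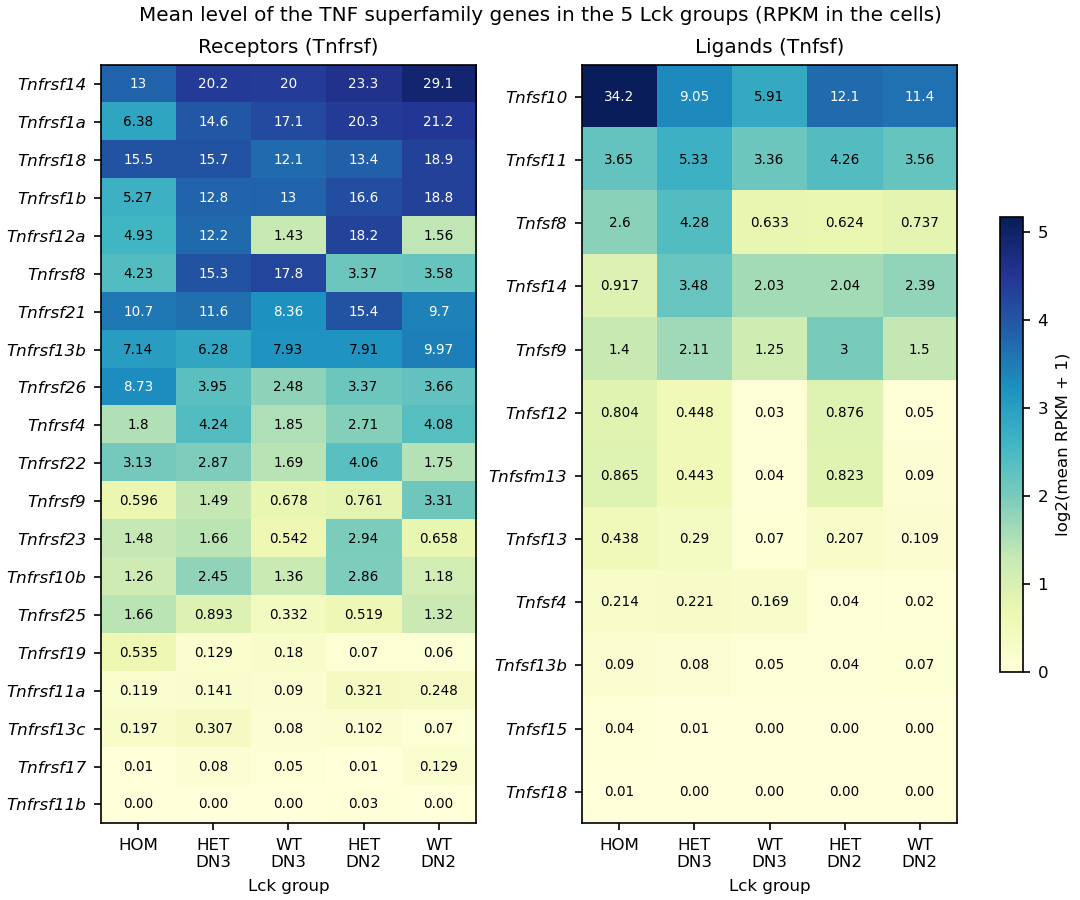
Mean RPKM of the 20 receptors (left) and 12 ligands (right) in each Lck group, printed in each cell, with the colour on a log2(RPKM + 1) scale. Tnfrsf14, Tnfrsf1a, Tnfrsf18 and Tnfrsf1b lead the receptors, and Tnfsf10 leads the ligands with 34.2 RPKM in HOM.

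HOM against WT DN3 asked how cells with both alleles floxed differed from cells with none under the same sort gate. The genes of both TNF receptors, of CD30 and of HVEM were lower in HOM, and the TRAIL gene was higher. Of the 20 tested members, 2 were higher and 4 lower by edgeR's quasi-likelihood test at a Benjamini-Hochberg adjusted p under 0.05, or 30.0% of them. Of all tested genes 39.4% were called (19.8% higher and 19.7% lower), so in this fit the share of members was not above the background. The members' median log2 change was 0.11, against 0.01 over all tested genes. Without the 8 libraries 11 of the 20 members were called, a share above the 44.7% of all genes, and the members' median was 0.04. The members' share was also above the background with DESeq2 (10 of the 20, against 42.4%). So it was with only the 2 groups compared (13 of the 20, against 43.7%). With limma on log2(RPKM + 1) (6 of the 20, against 37.4%) and with any single library left out it was not above. The difference from the background was not tested. Setting HOM against HET DN3 called 2 higher and 5 lower, 35.0% of the members, against 24.8% of all genes (11.8% higher and 13.0% lower), with a median of -0.61 against -0.02 over all genes. Without the 8 libraries 9 were called, where 27.5% of all genes were, and the members' median was -0.18. The comparisons share the HOM libraries. The share of all tested genes whose ranges did not overlap between these groups is not given here. A lack of overlap below is therefore not read as particular to a member.

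Tnfrsf8, on activated lymphocytes the receptor of CD30 ligand, fell most among the members called in HOM against WT DN3. It had 2.71, 4.13, 4.75, 3.89 and 5.68 RPKM in HOM. HET DN3 libraries had 13.2 at lowest, 15.0 at the median and 17.2 at highest, and WT DN3 libraries had 17.2, 20.3, 19.1, 17.1 and 15.3 RPKM. Every HOM library lay below every DN3 library of the other genotypes. The log2 change was -2.10 against WT DN3 (SE 0.29, adjusted p = 4.94e-06), a 4.28-fold lower level, and -1.84 against HET DN3 (SE 0.28, adjusted p = 2.61e-05). An exact 2-sided permutation test of log2(RPKM + 1) gave p = 0.00794 against WT DN3, the smallest it can give with 5 libraries each (adjusted p = 0.0185 over 7 comparisons). Against HET DN3 it gave p = 0.00433 (adjusted p = 0.0152, exact permutation).

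Both TNF receptor genes were lower in HOM, where the regulatory T-cell markers Foxp3 and Ctla4 also lay below, and Ikzf2 above, every WT DN3 library. Tnfrsf1a, whose product carries a death domain, had 4.20, 6.59, 9.03, 3.90 and 8.16 RPKM in HOM, against 16.0, 14.8, 17.4, 19.1 and 18.2 RPKM in WT DN3. HET DN3 ran over 9.82 at lowest, 14.8 at the median and 18.5 at highest, and no HOM library reached that lowest value. The log2 change was -1.45 against WT DN3 (SE 0.18, adjusted p = 1.90e-06) and -1.18 against HET DN3 (SE 0.18, adjusted p = 2.77e-05). Tnfrsf1b, whose product signals through TRAF2 and has no death domain, had 4.40, 3.99, 6.79, 3.31 and 7.88 RPKM in HOM, against 13.2, 11.2, 13.0, 13.8 and 13.9 RPKM in WT DN3. HET DN3 libraries had 10.3 at lowest, 12.5 at the median and 15.5 at highest, again above all HOM libraries. The log2 change was -1.33 against WT DN3 (SE 0.17, adjusted p = 1.93e-06) and -1.26 against HET DN3 (SE 0.16, adjusted p = 3.90e-06).

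Tnfrsf14 (chromosome 4, 154296319 to 154302186, mm9) fell by less. It had 11.5, 15.2, 14.7, 8.73 and 14.9 RPKM in HOM, against 20.7, 16.8, 19.7, 25.2 and 17.6 RPKM in WT DN3. HET DN3 libraries had 14.2 at lowest, 21.3 at the median and 24.7 at highest. HOM and WT DN3 did not overlap, whereas the lowest HET DN3 library lay within the range of HOM. The log2 change was -0.65 against WT DN3 (SE 0.16, adjusted p = 0.00218) and -0.62 against HET DN3 (SE 0.15, adjusted p = 0.00352).

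Tnfsf14, the gene of LIGHT (chromosome 17, 57328897 to 57333604), was low in all groups. It had 0.517, 1.15, 0.643, 1.15 and 1.13 RPKM in HOM, against 1.68, 1.70, 2.40, 2.38 and 2.02 RPKM in WT DN3. Those groups did not overlap, but the log2 change of -1.18 missed the threshold (SE 0.47, adjusted p = 0.0508). HET DN3 libraries had 0.847 at lowest, 2.37 at the median and 10.8 at highest, the last in the replicate with mature T-cell transcripts. The log2 change against HET DN3 was -1.91 (SE 0.47, adjusted p = 0.00402), larger than that of Tnfrsf8. Leaving out the 8 libraries gave -1.26 (SE 0.32, adjusted p = 0.00748), smaller than the -1.97 of Tnfrsf8. Without those 8, the change against WT DN3 was -1.16 and passed (SE 0.29, adjusted p = 0.00424).

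Tnfsf10, whose product TRAIL triggers apoptosis through death receptors, had the largest rise among the called members. It had 37.6, 35.5, 29.2, 35.3 and 33.4 RPKM in HOM, against 5.99, 6.13, 4.87, 6.09 and 6.44 RPKM in WT DN3. HET DN3 libraries had 7.05 at lowest, 8.54 at the median and 11.7 at highest. The 3 groups did not overlap, with HET DN3 between HOM and WT DN3. The log2 change was 2.50 against WT DN3 (SE 0.14, adjusted p = 1.64e-11), a 5.67-fold higher level, and 1.93 against HET DN3 (SE 0.13, adjusted p = 3.51e-10). Its mouse death receptor gene Tnfrsf10b averaged 1.26 ± 0.77 RPKM in HOM and 1.36 ± 0.173 RPKM in WT DN3 (SD, n = 5 each) and was not called (log2 change -0.14, adjusted p = 0.865). Without the epithelial libraries HOM averaged 0.818 RPKM, and without all 8 the log2 change was -0.77 (SE 0.35, adjusted p = 0.0822).

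Tnfrsf26 lies on chromosome 7 (150793590 to 150813750, minus strand, mm9) beside Tnfrsf22 and Tnfrsf23, whose mouse products bind TRAIL and lack a death domain. The gaps between the 3 genes are 6.96 and 16.1 kb. Tnfrsf26 had 8.93, 10.6, 8.12, 7.01 and 8.96 RPKM in HOM, against 3.18, 2.45, 1.88, 2.21 and 2.71 RPKM in WT DN3. HET DN3 libraries had 2.13 at lowest, 4.19 at the median and 5.17 at highest, and every HOM library was above them. The log2 change was 1.78 against WT DN3 (SE 0.21, adjusted p = 8.02e-07) and 1.16 against HET DN3 (SE 0.20, adjusted p = 0.000116). The 3 genes are related in sequence, so reads of similar stretches could be split between them and the values are to that extent uncertain.

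Tnfrsf22 and Tnfrsf23 were not called in HOM against WT DN3, although their ranges did not overlap. Tnfrsf22 had 2.36 to 3.52 RPKM in HOM and 1.62 to 1.78 in WT DN3 (log2 change 0.85, SE 0.37, adjusted p = 0.0670). Tnfrsf23 had 1.16 to 2.08 RPKM in HOM and 0.501 to 0.593 in WT DN3 (log2 change 1.41, SE 0.66, adjusted p = 0.0937). Both passed without the 6 libraries with epithelial transcripts, with log2 changes of 0.83 (adjusted p = 0.00231) and 1.19 (adjusted p = 0.00220).

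Tnfsf8, the gene of CD30 ligand, and Tnfrsf25, the gene of the death receptor DR3, also separated HOM from WT DN3 without being called. Tnfsf8 had 1.63 to 4.11 RPKM in HOM and 0.454 to 0.789 RPKM in WT DN3 (log2 change 2.01, SE 0.95, adjusted p = 0.0964). Tnfrsf25 had 0.748 to 3.36 RPKM in HOM and 0.211 to 0.561 RPKM in WT DN3 (log2 change 2.29, SE 1.00, adjusted p = 0.0728). With the 8 libraries left out, Tnfsf8 changed by 2.21 (adjusted p = 0.00561) and Tnfrsf25 by 2.61 (adjusted p = 0.0136). In HET DN3 the replicate with mature T-cell transcripts alone had 21.7 RPKM of Tnfsf8, against 0.391 to 1.18 in the other 5.

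**Figure D2:**
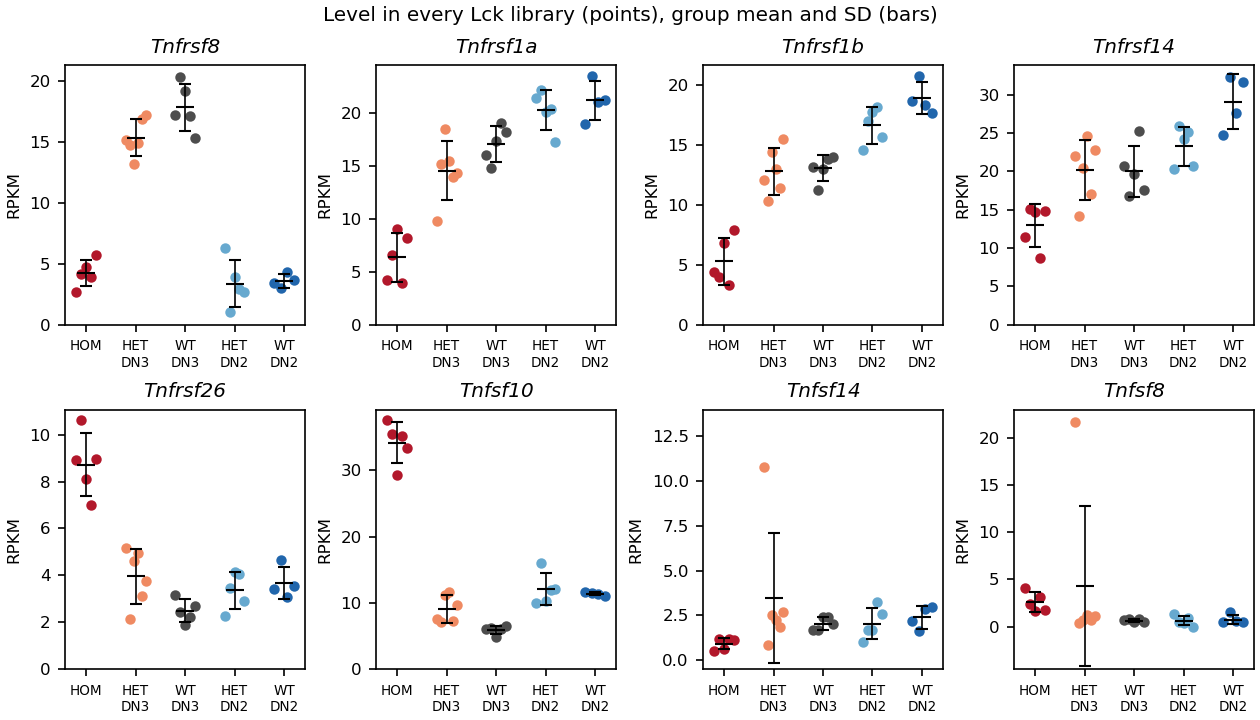
RPKM of 8 members in every Lck library (points), with the group mean and SD (bars; a bar can reach below 0 where 1 library is far from the rest). HOM lies below both DN3 groups for Tnfrsf8, Tnfrsf1a and Tnfrsf1b and above them for Tnfrsf26 and Tnfsf10, and single HET DN3 libraries stand out for Tnfsf14 and Tnfsf8.

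**Figure D3:**
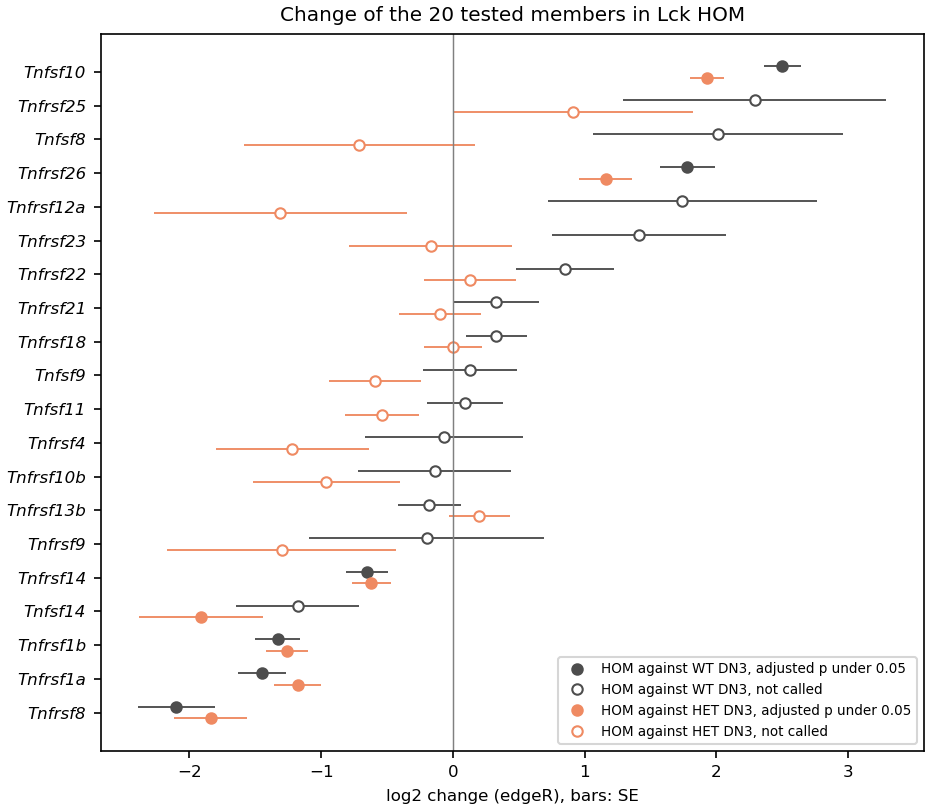
Log2 change of the 20 tested members in HOM against WT DN3 (grey) and against HET DN3 (orange) with SE bars; filled points passed an adjusted p of 0.05. Tnfsf10 and Tnfrsf26 are the filled points on the right, and Tnfrsf8, Tnfrsf1a, Tnfrsf1b and Tnfrsf14 are filled on the left in both comparisons, with Tnfsf14 filled only against HET DN3.

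The stage steps put Tnfrsf8 and Tnfsf10 on opposite courses. Between WT DN3 and WT DN2, 3 of the 20 tested members were called, 1 higher and 2 lower, where 21.5% of all genes were called (12.2% higher and 9.3% lower). Tnfrsf8 had 15.3 to 20.3 RPKM in WT DN3, against 3.40, 2.97, 4.31 and 3.62 RPKM in WT DN2, with no overlap (log2 change 2.39, SE 0.32, adjusted p = 3.95e-05). The permutation test, exact and 2-sided, gave it p = 0.0159, or 0.0278 once adjusted. Tnfsf10 had 4.87 to 6.44 RPKM in WT DN3, against 11.7, 11.5, 11.3 and 11.1 RPKM in WT DN2 (log2 change -0.87, SE 0.14, adjusted p = 0.000180). Tnfrsf14 was lower in WT DN3 by -0.46 on the log2 scale (SE 0.16, adjusted p = 0.0455), with overlapping ranges, and lost its call without WT DN2 replicate 2, 3 or 4 or WT DN3 replicate 1, 2, 3 or 5 (adjusted p of 0.0634 to 0.128), and without the 8 libraries (log2 change -0.41, adjusted p = 0.0826). In a fit of the WT libraries alone with the replicate number as a block, 6 members were called, where 45.1% of all genes were: Tnfrsf1a, Tnfrsf1b and Tnfrsf26, all lower in WT DN3, joined the 3 above.

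Between HET DN3 and HET DN2, 1 of the 20 tested members was higher and 1 lower, where 10.9% of all genes were called (6.36% higher and 4.52% lower). Tnfrsf8 had 13.2 to 17.2 RPKM in HET DN3, against 6.32, 1.06, 3.88, 2.90 and 2.70 RPKM in HET DN2 (log2 change 2.19, SE 0.28, adjusted p = 7.66e-05). By exact permutation p was 0.00433. Tnfsf10 had 7.05 to 11.7 RPKM in HET DN3, against 9.91, 16.1, 10.3, 11.9 and 12.0 RPKM in HET DN2, with overlap (log2 change -0.39, SE 0.12, adjusted p = 0.0457). That call did not hold without the 8 libraries (log2 change -0.25, adjusted p = 0.273), and likewise without HET DN2 replicate 2, 4 or 5 or HET DN3 replicate 1, 2, 5 or 6 (adjusted p of 0.0504 to 0.159). The steps of HET and WT differed in no gene of 12218 by the same edgeR test, where 1112 had an unadjusted p under 0.05. Among the members 5 did (Tnfsf10, Tnfrsf18, Tnfrsf26, Tnfrsf9 and Tnfsf8), with an adjusted p of at least 0.476. The difference of the steps was not fitted without the 8 libraries.

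Cells with 1 floxed allele were set against cells with none at each stage. DN2 cells were sorted YFP-, and whether their floxed allele had been deleted was not tested. In HET DN3 against WT DN3, 1 of the 20 members was called (5.0%), against 7.37% of all genes (4.31% higher and 3.06% lower). That share of all genes ran from 0.0818% without WT DN3 replicate 3 to 13.6% without HET DN3 replicate 5, and was 0.614% without the 8 libraries. Tnfsf10 was higher in HET DN3, with 7.05 to 11.7 RPKM against 4.87 to 6.44 in WT DN3 and no overlap (log2 change 0.58, SE 0.13, adjusted p = 0.0225). Leaving out WT DN3 replicate 3 (adjusted p = 0.103) or HET DN3 replicate 3 (adjusted p = 0.0528) ended the call, which held without the 8 libraries (log2 change 0.65, adjusted p = 0.0183). Tnfrsf26 had a log2 change of 0.63 that missed the threshold (SE 0.20, adjusted p = 0.0540). Tnfrsf8 was not called by edgeR (log2 change -0.26, SE 0.26, adjusted p = 0.535), while by exact permutation (2-sided) p was 0.0260, adjusted to 0.0364. In HET DN2 against WT DN2 edgeR called none of the members, where it called 0.0% of all genes. An unadjusted p under 0.05 was found for 5 of the members (Tnfrsf12a, Tnfrsf22, Tnfrsf23, Tnfrsf9 and Tnfsf9) and for 7.46% of all genes, and DESeq2 called Tnfrsf12a alone among the members and 1.5% of all genes. Without the 8 libraries the log2 change was 0.34 for Tnfrsf12a (3.55 with them), 0.35 for Tnfrsf22 (1.22), -0.16 for Tnfrsf23 (2.17), 0.40 for Tnfrsf9 (-2.10) and 0.27 for Tnfsf9 (1.01). An unadjusted p under 0.05 was then found for 1 member and for 2.82% of all genes.

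HOM was also set against WT DN2, since HOM has no stage label. Of the 20 members 2 were higher and 5 lower (35.0%), against 41.2% of all genes (21.3% higher and 19.9% lower), and without the 8 libraries 11 were called, against 48.0% of all genes. Tnfrsf8 was not called there: HOM averaged 4.23 ± 1.09 RPKM (SD, n = 5) and WT DN2 3.58 ± 0.56 (SD, n = 4), with a log2 change of 0.29 (SE 0.30, adjusted p = 0.455; exact permutation p = 0.333). A p that misses the threshold does not show that the levels were equal. Tnfrsf1a (log2 change -1.68, SE 0.19, adjusted p = 5.11e-07), Tnfrsf1b (-1.78, SE 0.18, adjusted p = 7.70e-08) and Tnfrsf14 (-1.11, SE 0.16, adjusted p = 1.32e-05) were lower in HOM than in WT DN2. Tnfsf10 was higher by 1.63 (SE 0.14, adjusted p = 1.68e-08) and Tnfrsf26 by 1.30 (SE 0.22, adjusted p = 8.32e-05). Tnfsf14 was lower by -1.34 (SE 0.49, adjusted p = 0.0341), and missed the threshold without WT DN2 replicate 1, 3 or 4 or HOM replicate 1 or 3 (adjusted p up to 0.0835). Tnfrsf9, the gene of the costimulatory receptor 4-1BB, had a log2 change of -2.41 (SE 0.95, adjusted p = 0.0466) that rested on WT DN2 replicate 2. It had 11.3 RPKM in that library and 0.586 to 0.720 in the other 3, and without it the log2 change was -0.09 (adjusted p = 0.946). The call was also lost without any single HOM library (adjusted p of 0.0550 to 0.0946).

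Levels of 4 receptor genes were higher in each of the 6 libraries with epithelial transcripts than in every other Lck library, and those 6 come from HOM, HET DN3 and HET DN2. Tnfrsf12a, the gene of the TWEAK receptor Fn14, had 6.44 to 49.2 RPKM in those 6 libraries and 1.05 to 2.49 RPKM in the other 19. Tnfrsf23 had 1.53 to 7.02 RPKM in the 6 and 0.433 to 1.39 in the 19. Tnfrsf21, the gene of the death receptor DR6, had 12.4 to 26.9 RPKM in the 6 and 6.37 to 11.6 in the 19. Tnfrsf10b had 1.52 to 6.95 RPKM in the 6 and 0.368 to 1.52 in the 19, ranges that met to 3 digits. Of all tested genes, 288 (2.36%) were higher in every one of the 6 libraries than in all the others. Tnfrsf12a had a log2 change of 3.06 in HET DN3 against WT DN3 (SE 1.05, adjusted p = 0.0656) and of 0.17 without the 6 libraries (SE 0.26, adjusted p = 0.731).

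**Figure D4:**
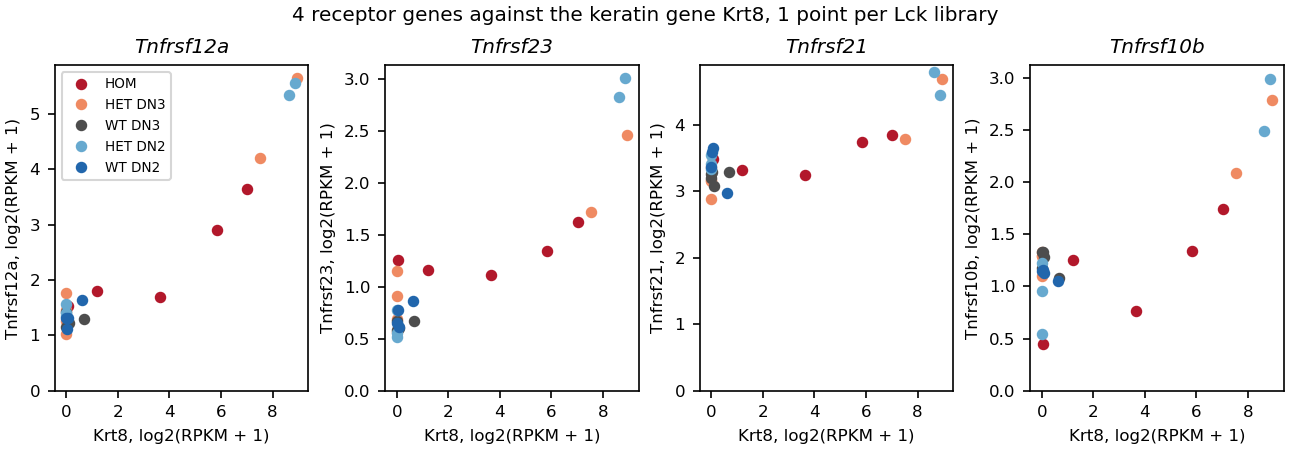
Level of Tnfrsf12a, Tnfrsf23, Tnfrsf21 and Tnfrsf10b against the keratin gene Krt8, 1 point per Lck library, both axes in log2(RPKM + 1). The 6 libraries with 56.0 to 490 RPKM of Krt8 come from HOM, HET DN3 and HET DN2 and have the highest levels of Tnfrsf12a, 6.44 to 49.2 RPKM.

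The Vav series gave values for 12 members, in counts scaled to the listed counts of each library by TMM factors. The level of HOM relative to the controls depends on how that scale was centred. The authors chose the listed genes by their change in HOM on these libraries, so no p-value of HOM is given here. In all 12 the HOM libraries did not overlap the HET and WT libraries, with 7 higher and 5 lower in HOM. The same lack of overlap held for 97.5% of all listed genes, of which 972 were higher and 1104 lower. Of the 9 that were also tested in the Lck series, 8 had the same direction there in HOM against WT DN3, and Tnfsf11 was the exception. Of the 1587 listed genes tested in both series, 96.7% had the same direction, so the members' share was not above the background.

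The receptor genes of CD30 and of TNF and the LIGHT gene were among the lower members in Vav HOM, while Tnfrsf14 was not among the listed genes. Tnfrsf8 had 27.9, 51.6 and 43.2 scaled counts in HOM, 209, 237, 224 and 73.8 in HET, and 251 and 121 in WT. Its mean was 4.55-fold lower in HOM than in HET. Tnfrsf1b averaged 287 ± 13.9 scaled counts in HOM (SD, n = 3), 1130 ± 122 in HET (n = 4) and 1120 ± 284 in WT (n = 2). Tnfrsf1a averaged 163 ± 17.4 in HOM, 583 ± 40.3 in HET and 731 ± 61.8 in WT. Tnfsf14 was 4.03-fold lower in HOM than in HET, at means of 21.2, 85.5 and 98.8 scaled counts in HOM, HET and WT. Tnfsf11, the gene of RANK ligand, had 38.7 to 63.9 scaled counts in HOM, 86.2 to 174 in HET, and 113 and 64.0 in WT. The highest HOM library and the lower WT library nearly met. Tnfrsf8 and Tnfsf14 each rested on few WT libraries. Without WT replicate 1 the log2 difference of Tnfrsf8 between HOM and WT in the edgeR fit was -1.56. Without WT replicate 2 that of Tnfsf14 was -1.59, against -2.19 and -2.21 with both.

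Among the higher members, Tnfsf10 and Tnfrsf26 again led in level. Tnfsf10 had 3300, 2930 and 2630 scaled counts in HOM, 1010, 853, 921 and 760 in HET, and 595 and 537 in WT. The 3 genotypes fell into separate ranges, with HET between HOM and WT. Tnfrsf26 had 683, 553 and 536 in HOM, 234, 223, 192 and 249 in HET, and 143 and 181 in WT. Tnfsf8 had 214, 213 and 202 in HOM, 26.8, 24.8, 26.7 and 24.2 in HET, and 12.8 and 10.8 in WT. HET against WT was tested by edgeR over the 2076 listed genes, of which 2.22% were called (1.78% higher and 0.434% lower). Tnfsf8 was the 1 member called, higher in HET by 1.11 on the log2 scale (SE 0.25, adjusted p = 0.0468), a call that ended without either WT replicate or without HET replicate 1, 2 or 3.

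Tnfrsf19 (TROY, in mouse known from the nervous system and hair follicles) had 199, 114 and 153 scaled counts in Vav HOM, 9.41, 10.2, 10.3 and 7.68 in HET, and 8.98 and 11.3 in WT. In the Lck series Tnfrsf19 was below the filter, with 0.535 ± 0.275 RPKM in HOM and 0.180 ± 0.0485 RPKM in WT DN3 (SD, n = 5 each), and no overlap. Tnfrsf25 averaged 46.7 ± 9.82 scaled counts in Vav HOM, 7.73 ± 1.39 in HET and 4.94 ± 5.03 in WT, and Tnfsf12 averaged 45.4 ± 10.3 in HOM, 10.4 ± 11.9 in HET and 6.89 ± 3.88 in WT (SD, n = 3, 4 and 2). Without WT replicate 2 the log2 difference between HOM and WT in the edgeR fit was 5.01 for Tnfrsf25 and 3.43 for Tnfsf12. With the replicate number as a block, the edgeR log2 difference of Tnfsf12 between HOM and HET was 3.47, against 2.13 from the group means. HET replicate 4, a number found only in HET, had 27.2 scaled counts of Tnfsf12, against 1.08 to 10.3 in the other HET libraries. Its part was not tested. Tnfsf15, the ligand of DR3, had 9, 22 and 6 counts in HOM, none in the HET libraries, and 1 and 0 in WT, so no fold was taken. In the Lck series it was below the filter as well, with 30 counts over the 5 HOM libraries and 1 over the 5 WT DN3 libraries.

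**Figure D5:**
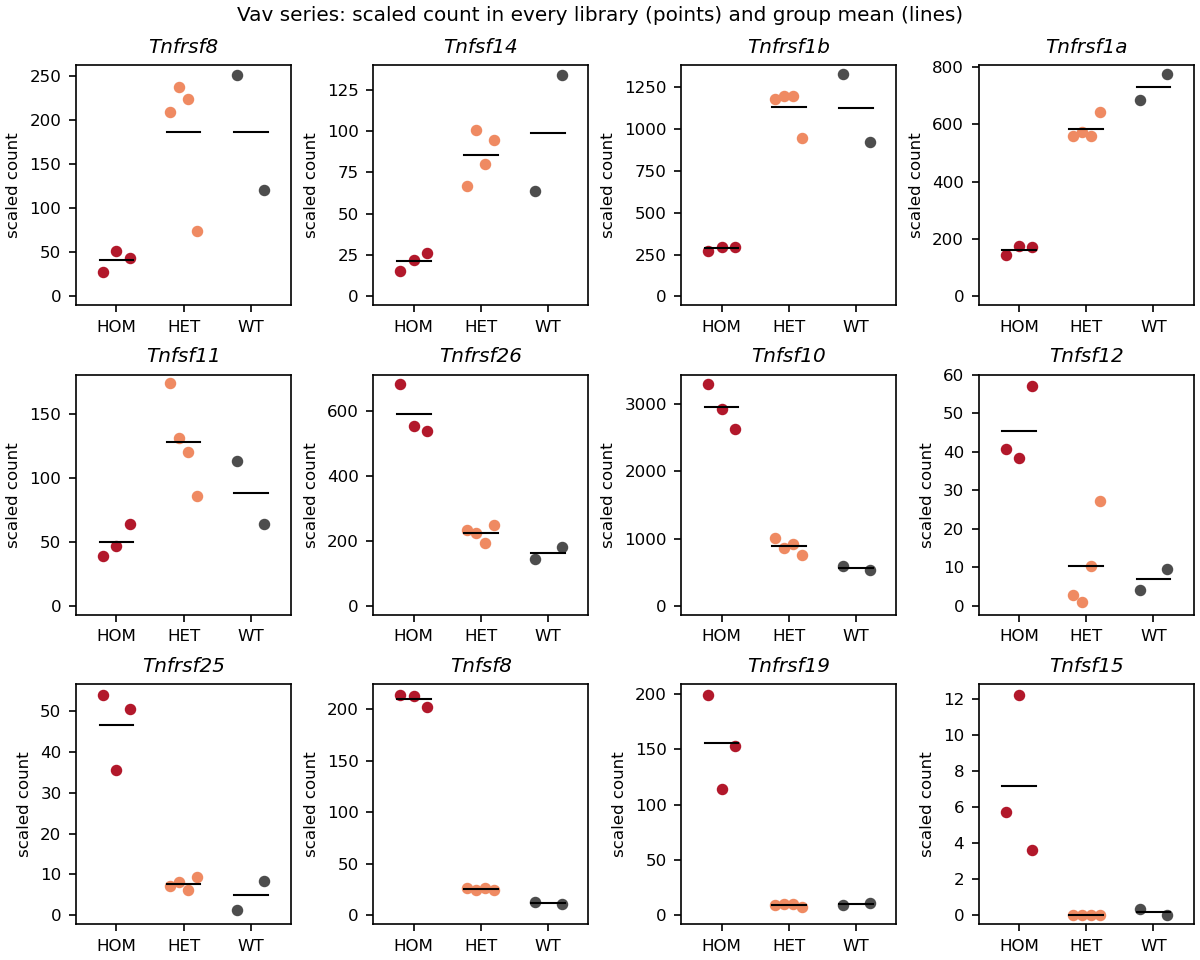
Scaled counts of the 12 listed members in every Vav library (points) with the group mean (lines), on linear axes from 0. Tnfrsf8, Tnfsf14, Tnfrsf1b, Tnfrsf1a and Tnfsf11 lie lower in HOM, and the other 7 lie higher, with Tnfsf10 at 2630 to 3300 scaled counts in HOM.

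Genes of the same pathways were read from lists, with values for HOM against WT DN3 unless HET DN3 is named. Of 28 adaptor and regulator genes, 9 were higher and 8 lower (median log2 change 0.03, against 0.01 over all tested genes, of which 39.4% were called). Tnfaip3, the gene of the NF-kappaB inhibitor A20, averaged 6.53 ± 0.812 RPKM in HOM and 16.8 ± 1.34 in WT DN3 (log2 change -1.39, SE 0.13, adjusted p = 3.40e-08). Traf3 (-0.67, adjusted p = 7.47e-06), Traf4 (-1.04, adjusted p = 8.34e-05) and Ripk3, the necroptosis kinase gene (-0.56, adjusted p = 0.000233), were lower too. Ripk1, the kinase gene at TNF receptor 1 (log2 change 0.64, adjusted p = 1.54e-05), was higher. So was Mlkl, the executor of necroptosis, with means of 4.33 ± 0.262 RPKM in HOM and 1.48 ± 0.984 RPKM in WT DN3 (adjusted p = 0.000206).

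Of 19 NF-kappaB kinase, subunit and inhibitor genes, 4 were higher and 4 lower (median -0.06). Nfkb2, the gene of the non-canonical subunit p100, averaged 8.79 ± 2.61 RPKM in HOM and 27.8 ± 4.08 in WT DN3 (log2 change -1.69, SE 0.26, adjusted p = 2.02e-05), while Nfkb1 averaged 62.1 ± 9.07 and 36.2 ± 4.97 (log2 change 0.75, SE 0.12, adjusted p = 3.22e-05). Bcl3 and Nfkbia were higher (3.04 and 0.90, adjusted p = 0.00170 and 0.00653), and Nfkbie and Rela lower (-0.54 and -0.34, adjusted p = 0.00187 and 0.00579). Of 17 tested NF-kappaB target genes, 5 were higher and 4 lower (median 0.58). The lists overlap: Nfkbia, Nfkbie, Nfkb2, Relb, Tnfaip3, Birc3 and Traf1 are also in the lists above, so their calls count in both. Against HET DN3 the balance turned, with 2 higher and 5 lower (median -0.68, or 0.31 without the 8 libraries), where 24.8% of all genes were called. The adaptor and regulator genes had 4 higher and 7 lower against HET DN3 (median -0.03), and the kinase, subunit and inhibitor genes 1 higher and 4 lower (median -0.16). Icam1, an adhesion gene, was higher (1.44, SE 0.19, adjusted p = 2.75e-06), and Traf1 lower (-1.98, SE 0.40, adjusted p = 0.000397). Il2ra, the gene of CD25, for which all cells were sorted, was higher by 0.58 (SE 0.15, adjusted p = 0.00392).

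Of 9 tested superfamily members under other symbols, 3 were called in HOM against WT DN3, where 39.4% of all genes were. They were receptors, 1 higher and 2 lower among the 6 tested: Eda2r (log2 change 4.98, SE 1.94, adjusted p = 0.0455), Relt (-0.54, SE 0.16, adjusted p = 0.0101) and Ngfr (-1.89, SE 0.69, adjusted p = 0.0336). Eda2r averaged 0.528 ± 0.634 RPKM in HOM and 0.0159 ± 0.0201 in WT DN3, with overlap. Its HOM libraries had 0, 0.700, 0.409, 1.53 and 0 RPKM, with a mean of 0.277 without replicate 4, and the epithelial HET DN2 libraries had 2.66 and 2.63 RPKM. The call ended without any single WT DN3 library or HOM replicate 2, 3 or 4 (adjusted p up to 0.104), and held without the 8 libraries (log2 change 4.94, adjusted p = 0.00901). Ngfr was not called without the 8 libraries (log2 change -1.36, adjusted p = 0.0678), nor without WT DN3 replicate 3 or 4 or HOM replicate 1, 2 or 3. None of the 3 tested ligands was called, and Tnf averaged 1.27 ± 0.573 RPKM in HOM and 1.43 ± 0.22 in WT DN3. Against HET DN3, where it averaged 2.98 ± 1.88 RPKM (SD, n = 6), Tnf was lower in HOM by -1.21 on the log2 scale (SE 0.41, adjusted p = 0.0349). That call ended without the 8 libraries (log2 change -0.80, adjusted p = 0.161), and without HET DN3 replicate 1 or 6 or HOM replicate 1, 2, 3 or 4 (adjusted p up to 0.118). Cd27, a costimulatory receptor gene, was the most abundant of these, at 90.2 ± 15.9 RPKM in HOM and 85.8 ± 8.09 in WT DN3 (SD, n = 5 each), and was not called.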

How the data were processed

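RNA sequencing counts of 34 libraries were analysed, 25 of the Lck series and 9 of the Vav series. The submitters' processing notes name edgeR 3.6.8, HOMER, RSEM 1.2.25, Trimmomatic 033 and STAR 2.4.0, and as builds NCBIM37 and mm9. The deposited values are whole-number counts per gene, although the name of the Lck table speaks of RPKM, and the deposited Length column (another measure, in bases) gave the RPKM computed here. In 10 of the 25 Lck columns the 26 rows of Marc, March and Sept genes were missing, so values below them stood beside the wrong gene. Those values were moved down, and 114 genes whose sorting was ambiguous were left out, none of them a member, leaving 24365 genes. Over the 4991 genes after the last missing symbol the correlation with intact columns was 0.141 to 0.153 as deposited and 0.965 to 0.992 once restored.

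Genes with a mean of at least 1 RPKM in at least 1 Lck group were tested with edgeR 4.0.16 (TMM scaling, quasi-likelihood, R 4.3.3) in 1 fit of the 5 Lck groups, with Benjamini-Hochberg adjustment over 12218 genes and a threshold of 0.05. The procedure was also run on simulated counts, and the outcome is not given here. The simulation had the same spread for all genes and no libraries that stood apart, so it cannot show how such libraries affect the calls. Alternatives used limma 3.58.1, DESeq2 1.42.0, other filters and left-out libraries. Tnfrsf8 was also tested by exact permutation with scipy 1.17.1 (Python 3.11.15). Vav counts were scaled by TMM within controls and within HOM, and HOM was then shifted so that the empty gap in the log2 changes of the listed genes (-0.97 to 0.97) was centred on 0, a choice that sets the level of HOM relative to controls. Replicate numbers paired WT DN3 with WT DN2 (correlations of 0.171 to 0.609 in all 4 pairs, from the data). In the other comparisons not every pair was over 0.1, and they were not paired. For HOM with HET DN3, 4 of 5 pairs were over 0.1 (-0.006 to 0.746), and for HET DN3 with HET DN2, 3 of 5 (-0.697 to 0.736). The members and lists were chosen with earlier results of these data known. Members called between HOM, HET DN3 and WT DN3, and Tnfrsf8, are given in full, others shortly, and up to 6 genes per list by smallest adjusted p. For the Vav series, HOM was part of the edgeR fits, and log2 differences from them are given. No p-value of HOM is reported there, because the authors selected the listed genes on those libraries.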

Additional observations from a re-analysis of the deposited data

Results flagged for a closer look

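A library was picked out where it lay far from the rest of its group by Dixon's test. That held for 18 of the 112 member and group combinations examined, where chance gives about 1 in 20. In HET DN3 replicate 2, which holds epithelial transcripts, Tnfrsf12a had 49.2 RPKM (1.05 to 17.4 in the other libraries of the group), Tnfrsf21 had 24.9 (6.37 to 12.8) and Tnfrsf22 had 6.47 (1.68 to 2.69). In HET DN3 replicate 1, which holds mature T-cell transcripts, Tnfsf8 had 21.7 RPKM (0.391 to 1.18 in the others), Tnfsf11 had 11.0 (3.31 to 5.31) and Tnfsf14 had 10.8 (0.847 to 2.68). In WT DN2 replicate 2, which also holds them, Tnfrsf9 had 11.3 RPKM (0.586 to 0.720 in the others), Tnfrsf4, the gene of OX40, had 10.2 (1.58 to 2.38), Tnfrsf25 had 4.54 (0.108 to 0.324) and Tnfsf8 had 1.51 (0.444 to 0.544). The part of those cells in these values was not tested.

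Other libraries stood out for single members. Tnfrsf22 had 2.36 RPKM in HOM replicate 1 (3.22 to 3.52 in the others). Tnfsf10 had 4.87 in WT DN3 replicate 3 (5.99 to 6.44), and Tnfrsf18 had 9.06 in WT DN3 replicate 2 (12.3 to 13.3). In HET DN2, Tnfsf11 had 7.51 in replicate 5 (2.67 to 3.83) and Tnfrsf25 had 1.67 in replicate 4 (0 to 0.411). That replicate 4 is not among the 8 libraries left out above. Its 5 mature T-cell markers summed to 81.1 CPM, against at most 22.4 in the rest of HET DN2. Cd4 had 13.9 and Ccl5 10.9 RPKM in it, and their part was not tested. In Vav HET replicate 4, Tnfrsf8 had 73.8 scaled counts (209 to 237 in the others), Tnfrsf1b had 945 (1180 to 1200) and Tnfrsf1a had 643 (559 to 572).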

How the results depend on the processing

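Tnfrsf8, Tnfrsf1a, Tnfrsf1b, Tnfrsf14, Tnfrsf26 and Tnfsf10 kept direction and call in HOM against WT DN3 and against HET DN3 under every alternative run. Counts of called members moved more, and the cause was not tested. For the Lck series the share of all genes called follows each count. HOM against WT DN3 (6, 39.4%) gave 10 with DESeq2 (42.4%), 13 with only the compared groups (43.7%) and 11 without the 8 libraries (44.7%). HOM against HET DN3 (7, 24.8%) gave 9 without the 8 libraries (27.5%). HET DN3 against WT DN3 (1, 7.37%) gave 4 with DESeq2 (15.5%), 0 with only the compared groups (0.532%), 2 without the 6 epithelial libraries (1.74%) and 0 to 4 with 1 library left out. It gave 0 without WT DN3 replicate 3 (0.0818%) or HET DN3 replicate 3 (0.802%), 2 without HET DN3 replicate 2 (4.14%) or 6 (12.0%), and 4 without HET DN3 replicate 5 (13.6%). The share alone also fell by over 1.5 times, with 1 member called, to 2.13% with no filter, 3.75% and 4.40% with limma and 0.614% without the 8 libraries, and was 12.9% under the replicate block. HET DN2 against WT DN2 (0, 0.0%) gave 1 with DESeq2 (1.5%). WT DN3 against WT DN2 (3, 21.5%) gave 5 with DESeq2 (24.9%), 5 with only the compared groups (36.8%) and 6 with the replicate block in WT libraries (45.1%). It gave 2 with no filter (10.8%), 2 without the 8 libraries (25.7%) and 2 to 3 with 1 library left out (14.7% to 19.2%). HET DN3 against HET DN2 (2, 10.9%) gave 1 with no filter (5.09%), only the compared groups (3.77%), the replicate block (11.6%) or without the 8 libraries (8.27%), and 1 to 4 with 1 library left out (4 without HET DN3 replicate 3, 13.4%). HOM against WT DN2 (7, 41.2%) gave 10 with only the compared groups (40.5%), 6 under the replicate block (42.2%) and 5 to 7 with 1 library left out (34.5% to 41.8%). It gave 11 without the 8 libraries (48.0%), where Tnfrsf9 reversed to 0.07 (adjusted p = 0.956). In Vav HET against WT (1, 2.22% of the listed genes), TMM over all listed genes gave 0, and leaving out 1 library 0 to 1, while the replicate block called Tnfsf10 in place of Tnfsf8. The shares of listed genes called under these Vav alternatives are not given here, so the changes are not read as particular to the members. A replicate block was also fitted over all groups, although only WT DN3 with WT DN2 had a correlation over 0.1 in every numbered pair. Under that block, Tnfrsf14 in the WT step (adjusted p = 0.0797) and Tnfsf10 in the HET step (0.0696) lost their calls by edgeR. So did Tnfrsf9 (adjusted p = 0.231) and Tnfsf14 (0.0634) in HOM against WT DN2. The blocks in WT libraries alone and in the Vav series were chosen after seeing the data. Members with few counts, such as Tnfsf15 and Tnfsf18, are limited by depth.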
